A study of Mus musculus with 6 samples.

Results

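The tripartite motif (TRIM) family was examined in bone marrow of leukaemic mice. Its members were taken as every probe set of the array whose gene symbol is Trim followed by a number and at most 1 letter. This gave 105 probe sets of 45037 that are not array controls, and they stand for 52 of the 22662 gene symbols on it. All 6 samples were RNA of whole bone marrow, from mice that carry the NUP98/HOXD13 transgene, a fusion gene that drives myelodysplasia and myeloid leukaemia in mice. The group labelled Gfi1b KO held 3 samples of the genotype Gfi1bfl/fl MxCretg NUP98/HOXD13, and the group labelled Gfi1b wildtype held 3 samples of the genotype Gfi1b wt MxCretg NUP98/HOXD13. MxCre, which both groups carry, is a recombinase under the interferon-responsive Mx1 promoter and is not limited to one blood lineage. When or how it was induced, the age of the mice, and whether each sample is a mouse of its own, are not given in the sources used here, so p-values measure only the spread between these samples. Each sample was hybridised to its own Affymetrix MG-430_2.0 array, and values are log2 levels after RMA, a procedure that corrects background, equalises the arrays and gives 1 value a probe set.

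TRIM proteins carry a RING finger, 1 or more B-boxes and a coiled coil, followed by a variable end that decides what they bind. Most act as E3 ubiquitin ligases, which attach ubiquitin to chosen proteins. Many are induced by interferon and restrict viruses or tune RIG-I and NF-kB signalling, a subgroup called TIF1 silences or regulates genes on chromatin, and TRIM10 and TRIM58 are known from maturing red cells.

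The label of the targeted gene could not be checked with these arrays. Gfi1b, whose product represses genes during red cell and platelet formation, read 10.88, 11.63 and 11.67 in the samples labelled KO, against 5.83, 6.37 and 4.38 in wildtype. The gene was thus higher in every sample labelled KO, while the deleted exons and those the probe set covers are not stated in the sources used here. All directions below are those of the samples labelled KO. Markers of neutrophils and monocytes also differed between the groups. The mean of 9 measured neutrophil markers lay between 4.08 and 8.24 in the samples labelled KO, against 12.2 to 13.6 in wildtype, with 6 of 9 lower past the threshold of a limma adjusted p under 0.05. The mean of 7 monocyte and macrophage markers lay between 4.15 and 5.04 in the samples labelled KO, against 7.196 to 9.37 in wildtype, with 5 of 7 lower past the threshold, and the monocyte genes Irf8 and Ccr2 averaged 3.80 and 3.71 there. Over all genes 2.33% were called lower. The mean of 10 T cell markers lay between 4.43 and 4.77 in the samples labelled KO, against 4.90, 7.59 and 4.81 in wildtype. Of these 10 limma called 0, and 0 reached an unadjusted p under 0.05. Wildtype replicate 2 stood apart, while the other wildtype samples lay close to those labelled KO. The floor is taken as 3.82, the mean of the array medians, and levels near it cannot show a further fall. Fewer cells of a type and less RNA per cell cannot be told apart in bulk marrow, and the part of these cell types in the differences below was not tested.

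The TRIM family as a whole differed little between the groups, and 1 gene passed the test. Trim23, which joins a RING finger ligase to an ARF GTPase domain in 1 protein, rose 2.35-fold in the samples labelled KO. It was the only call among 105 TRIM probe sets in limma at an adjusted p under 0.05, where 2.93% of all probe sets were called, 1.53% higher and 1.4% lower. Of the 105 differences, 58 were positive and 47 negative, with a median of 0.02 on the log2 scale, beside 0.02 over all probe sets. At an unadjusted p under 0.05 there were 8 higher and 6 lower TRIM probe sets, where 16.9% of all probe sets reached that level. The groups did not overlap for 11 TRIM probe sets that were higher in the samples labelled KO, where 12.5% of all probe sets did so, and for 7 that were lower, where 10.2% did. With 1 probe set a gene, 48 TRIM genes could be tested and Trim23 was again the 1 call, where 4.55% of 20724 genes were called, 2.22% higher and 2.33% lower. These shares are near or under the background, so the family is described below by its branches and single members, whose differences mostly did not pass. In a design of 3 against 3 samples an exact two-sided permutation test cannot go below p = 0.1.

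Many TRIM probe sets lay near the floor in this marrow, no more often than probe sets as a whole. In 44 of the 105 TRIM probe sets both groups averaged below 3.82, and 13 genes had every probe set there. These were Trim2, Trim6, Trim7, Trim9, Trim31, Trim40, Trim42, Trim63, Trim66, Trim68, Trim69, Trim71 and Trim75. Among all probe sets, 46.1% lay below the floor in both groups, beside 41.9% of the TRIM probe sets. Of the 52 genes, 24 had 1 probe set and 28 had several, and in 13 of those 28 the probe sets differed in sign. The gene symbols of 49 members are current in RefSeq (GRCm38.p6), and Trim12, Trim30 and Trim34 are now Trim12a, Trim30a and Trim34a.

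**Figure D1:**
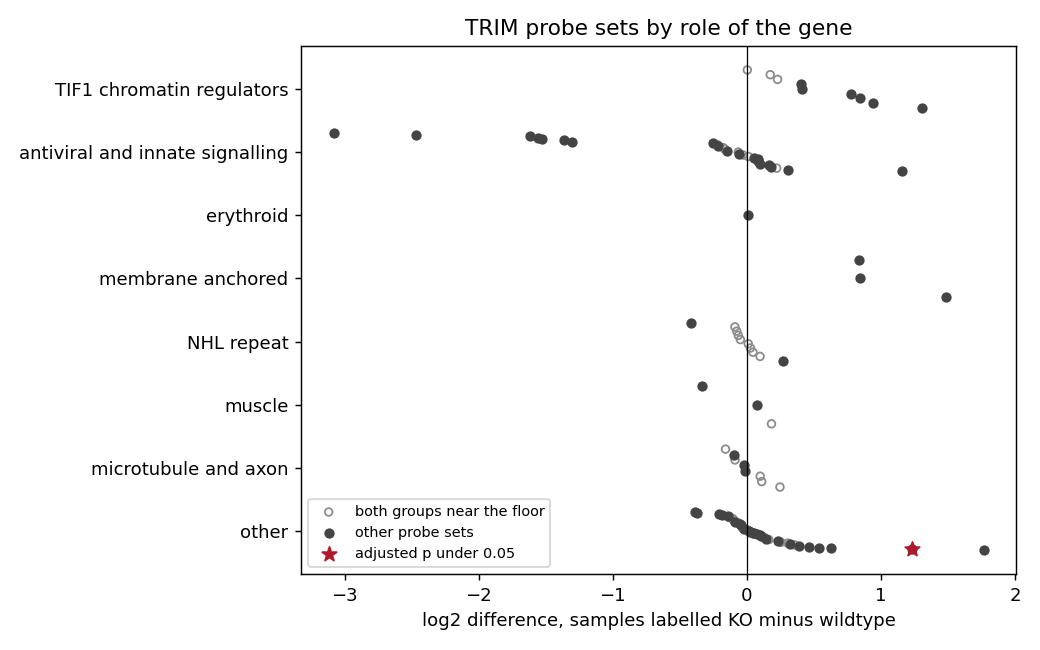
Log2 differences (samples labelled KO minus wildtype) of the 105 TRIM probe sets, 1 point each, in rows by the known role of the gene. Open points average near the floor in both groups, the star marks Trim23, and the spread to the left comes from the antiviral row, down to -3.08, while the TIF1 row lies at or right of 0.

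The lowest differences of the family belonged to its interferon-linked members. Trim30, Trim34 and Trim12 were each lower in all 3 samples labelled KO than in any wildtype sample, yet none passed the test. They are neighbours: Trim6, Trim34a, Trim5, Trim12a, Trim34b, Trim12c, Trim30b, Trim30c, Trim30a and Trim30d follow each other on chromosome 7 in the RefSeq annotation, with 1 other protein-coding gene among them. Trim12a and Trim12c are mouse relatives of the primate restriction factor TRIM5, and mouse Trim30a restrains NF-kB activation by degrading TAB2 and TAB3. Interferon acts on many genes through an ISRE, whose core repeats GAAA with a spacer. GAAA, a spacer of 2 bases of any kind and GAAA again were searched on both strands in RefSeq promoters (GRCm38.p6, 250 bases before to 50 after the start), with overlapping matches allowed. They stood in 7 of 55 TRIM promoters (12.7%), beside 3.44% of all 32851 promoters, and 41 of the 52 TRIM genes had a promoter in that table. The 6 genes were Trim2, Trim12a, Trim21, Trim26, Trim30a and Trim34a, so 5 of the 8 antiviral and innate genes with a promoter held the letters. Printed here are the promoters of the lower trio, of Trim21, which held the letters without such a difference, and of Trim23, which did not hold them. Sequences run 5′ to 3′ along the gene, and capitals mark the GAAA pair with its spacer, or the reverse complement.
Trim30a promoter, chr7:104465144-104465443, minus strand: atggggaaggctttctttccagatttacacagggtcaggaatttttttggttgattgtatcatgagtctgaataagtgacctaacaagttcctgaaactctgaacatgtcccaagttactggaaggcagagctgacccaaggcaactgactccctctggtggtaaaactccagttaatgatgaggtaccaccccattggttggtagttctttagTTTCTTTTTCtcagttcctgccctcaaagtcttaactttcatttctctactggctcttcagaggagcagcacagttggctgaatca
Trim34a promoter, chr7:104244207-104244506, plus strand: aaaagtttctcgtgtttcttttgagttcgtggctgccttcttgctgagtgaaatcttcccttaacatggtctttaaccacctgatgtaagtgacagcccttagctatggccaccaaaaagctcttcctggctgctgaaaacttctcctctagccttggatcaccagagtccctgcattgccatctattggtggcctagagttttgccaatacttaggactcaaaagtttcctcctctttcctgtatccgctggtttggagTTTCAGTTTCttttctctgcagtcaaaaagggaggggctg
Trim12a promoter, chr7:104315446-104315745, minus strand: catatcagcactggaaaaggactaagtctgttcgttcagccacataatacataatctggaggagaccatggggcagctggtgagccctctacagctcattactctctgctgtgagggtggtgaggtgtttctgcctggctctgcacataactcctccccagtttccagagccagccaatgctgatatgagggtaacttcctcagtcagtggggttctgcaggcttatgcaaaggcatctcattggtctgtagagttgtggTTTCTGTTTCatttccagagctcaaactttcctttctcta
Trim21 promoter, chr7:102565433-102565732, minus strand: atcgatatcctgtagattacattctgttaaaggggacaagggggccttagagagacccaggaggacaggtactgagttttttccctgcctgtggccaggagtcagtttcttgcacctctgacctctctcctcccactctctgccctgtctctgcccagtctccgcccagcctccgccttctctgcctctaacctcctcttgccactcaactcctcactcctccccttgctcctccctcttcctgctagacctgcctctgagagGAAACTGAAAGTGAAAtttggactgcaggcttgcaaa
Trim23 promoter, chr13:104178589-104178888, plus strand: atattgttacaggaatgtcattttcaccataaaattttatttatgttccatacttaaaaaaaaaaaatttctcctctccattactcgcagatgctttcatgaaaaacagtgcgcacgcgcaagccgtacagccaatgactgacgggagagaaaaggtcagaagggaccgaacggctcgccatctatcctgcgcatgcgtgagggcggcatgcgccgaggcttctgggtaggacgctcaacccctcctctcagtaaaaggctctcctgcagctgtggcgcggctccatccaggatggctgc
The match lay 11 to 20 bases after the start in both Trim34a and Trim12a, and at -36 to -27 relative to the start in the Trim30a promoter shown. A second promoter of Trim30a in the table held it 3 to 12 bases after the start. Trim21 held 2 overlapping matches. A match is only a run of letters and does not show that a factor binds there.

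Trim30 read 4.86, 4.72 and 4.003 at its brightest probe set in the samples labelled KO, against 8.34, 5.49 and 7.18 in wildtype. The samples labelled KO lay close together, while wildtype spread widely, with replicate 1 highest and replicate 2 nearest to the samples labelled KO. The difference was -2.47 with a standard error of 0.68, 5.55-fold lower (limma adjusted p = 0.126). A second probe set of Trim30 differed by -3.08 (limma adjusted p = 0.137). The one that also names AI451617, an older name of Trim30d, differed by -1.56, and there the groups overlapped (limma adjusted p = 0.303). Without wildtype replicate 2 all 3 passed, with differences of -3.23, -4.09 and -2.29 and limma adjusted p of 0.0146, 0.0119 and 0.0386, in a fit that called 4.86% of all probe sets. Without wildtype replicate 1 none of them passed, and the difference at the brightest probe set was -1.80.

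Trim34, an interferon-induced relative of Trim6, read 3.48, 4.21 and 4.13 in the samples labelled KO, against 6.63, 4.66 and 5.38 in wildtype. The order of the wildtype samples was that of Trim30. The difference was -1.62 with a standard error of 0.49, 3.07-fold lower (limma adjusted p = 0.156), and a second probe set differed by -1.36 (limma adjusted p = 0.124). The other pair of Trim34 probe sets lay near the floor in both groups. Trim12 read 3.73, 4.20 and 3.50 in the samples labelled KO, against 5.82, 4.69 and 5.51 in wildtype. Its mean of 3.81 ± 0.36 in the samples labelled KO was at the floor, beside 5.34 ± 0.59 in wildtype (SD, n = 3), so the difference of -1.53 with a standard error of 0.32 may be compressed (limma adjusted p = 0.0642). Trim12 passed at this probe set without wildtype replicate 2, with a difference of -1.86 and a limma adjusted p of 0.0153. The other probe sets of Trim12 lay near the floor in both groups and differed by 0.01 and -0.03. Every probe set of Trim30, and each of Trim12 and Trim34 that was above the floor, is of the _a_at type, which can match several transcripts. The genes of this run are close copies, so signal shared between them cannot be told apart.

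At the brightest probe sets of Trim14, Trim25, Trim21, Trim26 and Trim65 the groups overlapped. Trim14, an adaptor of antiviral signalling at MAVS, read 3.71, 5.84 and 5.10 in the samples labelled KO, against 7.44, 5.46 and 5.68 in wildtype. The groups overlapped, and the difference of -1.31 with a standard error of 0.69 did not pass (limma adjusted p = 0.413). Without wildtype replicate 1 the difference of Trim14 was -0.69. Trim25, the ligase that activates RIG-I, read 6.91, 7.26 and 7.01 in the samples labelled KO, against 8.07, 6.42 and 6.88 in wildtype, so the samples labelled KO lay between the wildtype ones. Its difference was -0.06 with a 95% interval of -1.02 to 0.90. Trim21, the cytosolic antibody receptor, read 5.14, 5.60 and 5.06 in the samples labelled KO, against 5.57, 4.86 and 5.12 in wildtype, at a probe set that also names LOC100045519. The difference of Trim21 was 0.08 with a 95% interval of -0.46 to 0.63. Trim26 and Trim65 differed by 0.18 and 0.31 without passing, and both probe sets of Trim6 were near the floor. Over the 27 probe sets of the 10 antiviral and innate genes, limma called 0, with 1 higher and 5 lower at an unadjusted p under 0.05, and the groups did not overlap for 1 higher (3.7%) and 5 lower (18.5%). The same shares over all probe sets were 12.5% and 10.2%, and 16.9% reached an unadjusted p under 0.05 in either direction. The 1 higher was a dimmer probe set of Trim27, and the 5 lower were those of Trim12, Trim30 and Trim34 described above.

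**Figure D2:**
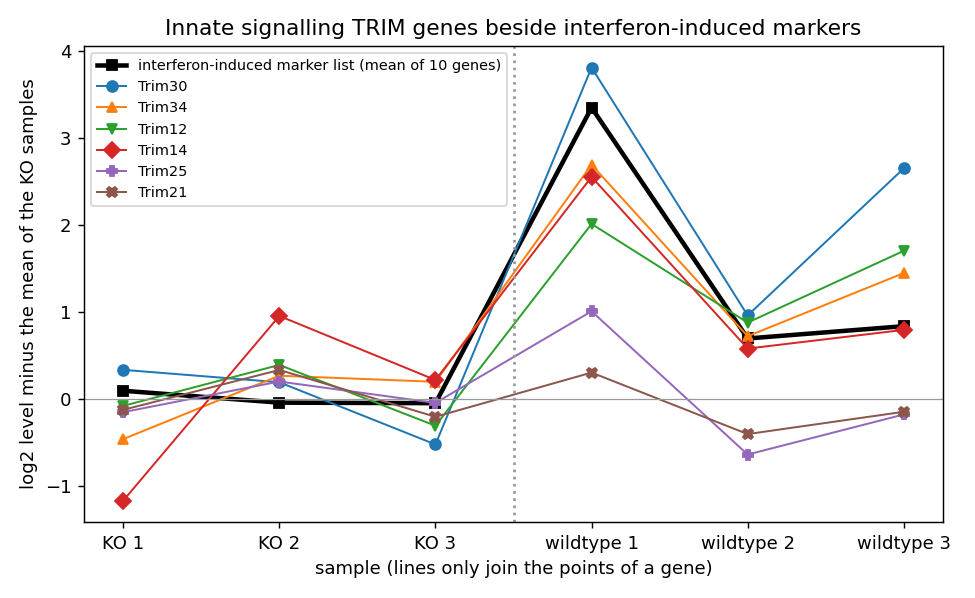
Log2 level of 6 innate signalling TRIM genes at their brightest probe set in each sample, minus the mean of the 3 samples labelled KO, with the mean of 10 interferon-induced markers in black. Wildtype replicate 1 is the highest sample of Trim30, Trim34, Trim12, Trim14, Trim25 and the markers, and Trim21 and Trim25 do not separate the groups.

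Interferon-induced genes outside the family stood in a similar place. The mean of 10 measured interferon-induced markers was 4.15, 4.02 and 4.01 in the samples labelled KO, against 7.41, 4.75 and 4.90 in wildtype, with wildtype replicate 1 far above the other 5 samples. Of these 10 markers 1 was lower past the threshold, none was higher, and 5 averaged below the floor in the samples labelled KO. Over all genes 2.33% were called lower and 2.22% higher. Irf7, an interferon-induced activator, read 3.85, 4.18 and 3.77 in the samples labelled KO, against 9.21, 4.51 and 5.07 in wildtype. The part of this marker difference in the TRIM values was not tested.

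TIF1 proteins add a PHD finger and a bromodomain to the TRIM fold and work on chromatin. Trim24, Trim28 and Trim33 were each higher in all 3 samples labelled KO than in any wildtype sample at their brightest probe set, and none passed the test. Of 9 TIF1 probe sets all 9 differences were positive, where 24256 of 45037 probe sets were, and the groups did not overlap for 6. Both groups averaged near the floor in 3 of the 9, and a Trim24 probe set among these also counts among the 6. Limma called 0, with 4 higher at an unadjusted p under 0.05. Over all probe sets 12.5% were higher without overlap, 2.93% were called and 16.9% reached an unadjusted p under 0.05 in either direction, and with 9 probe sets of 4 genes, which share their samples, nothing is read from the branch as a group. The median over the 4 genes was 0.86, beside 0.01 over all genes.

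Trim24, a coregulator of nuclear receptors that also targets p53, read 6.21, 6.22 and 6.30 in the samples labelled KO, against 5.38, 5.27 and 4.16 in wildtype. The samples labelled KO agreed within 0.05 (SD) of their mean, and wildtype replicate 3 was lowest. The difference was 1.31 with a standard error of 0.32, 2.47-fold higher (limma adjusted p = 0.0934). Without wildtype replicate 3 the difference was smaller, 0.92, and passed (limma adjusted p = 0.0428). Its other probe sets differed by 0.41 and 0.23. Wildtype was near the floor at each, and at the latter the samples labelled KO were too, at 3.40.

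Trim33, which binds SMAD proteins, curbs TGF-beta signalling and is also known from blood formation, read 7.49, 7.48 and 8.13 in the samples labelled KO, against 6.98, 6.95 and 6.83 in wildtype. The groups were apart by less than the spread within the samples labelled KO. The difference was 0.78 with a standard error of 0.20 (limma adjusted p = 0.101). Further probe sets differed by 0.40 and 0.17, the latter near the floor in both groups. Trim28, the corepressor known as KAP1 that KRAB zinc finger proteins recruit to silence retroelements, read 10.04, 10.04 and 10.53 in the samples labelled KO, against 9.39, 9.98 and 8.43 in wildtype. Wildtype replicate 2 nearly reached the samples labelled KO, and wildtype replicate 3 lay far below. The difference was 0.94 with a standard error of 0.39 (limma adjusted p = 0.286), its second probe set gave 0.85, and without wildtype replicate 3 the first was 0.52. Trim66, the TIF1 relative of germ cells, averaged 3.26 in both groups, near the floor.

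**Figure D3:**
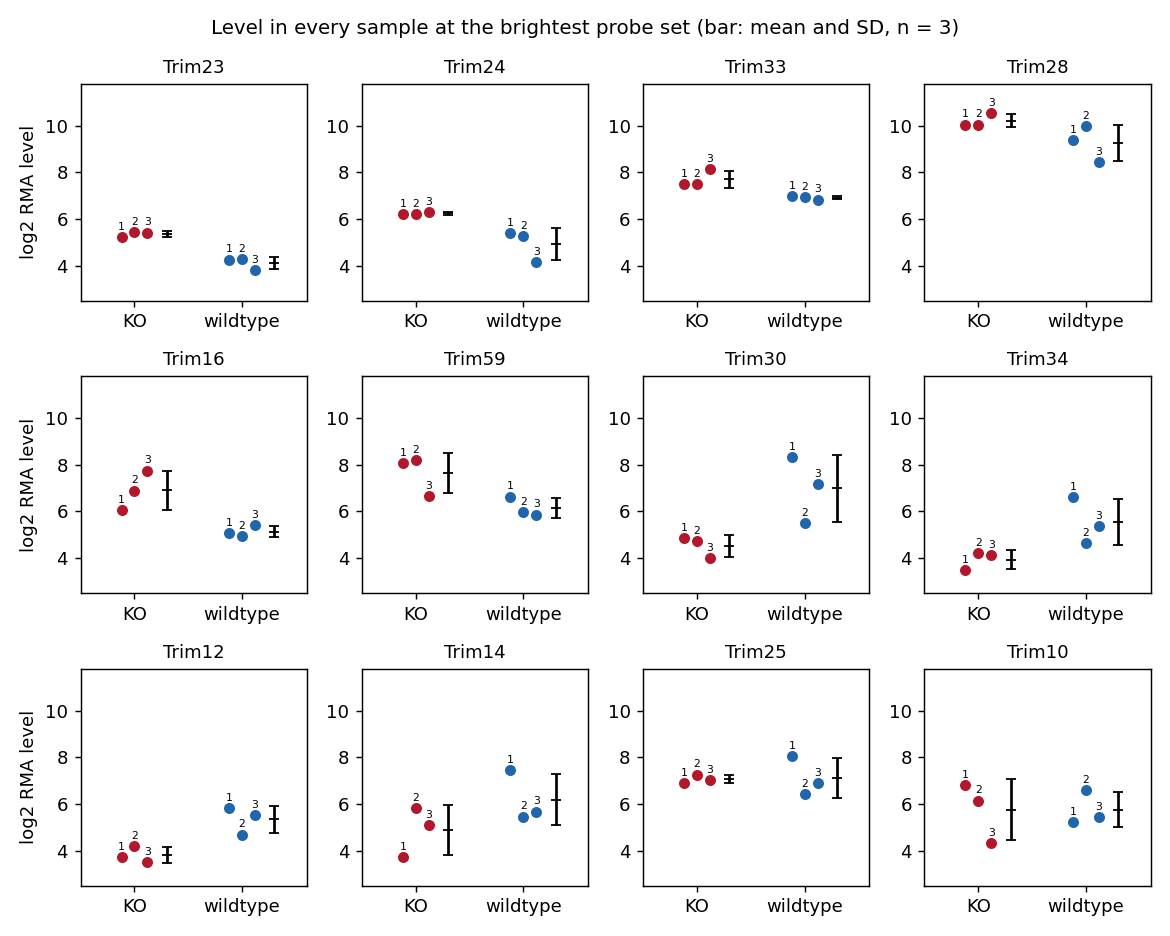
Log2 RMA level of 12 TRIM genes in every sample at the brightest probe set, samples labelled KO in red and wildtype in blue, with replicate numbers above the points and bars for the mean and SD (n = 3). Trim23, Trim24, Trim33, Trim28, Trim16 and Trim59 separate the groups upwards, Trim30, Trim34 and Trim12 downwards, and Trim14, Trim25 and Trim10 overlap.

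Trim23 read at its brightest probe set 5.21, 5.43 and 5.42 in the samples labelled KO, against 4.26, 4.28 and 3.82 in wildtype. Both groups were tight and about 1 log2 unit apart at their nearest samples. The wildtype mean of 4.12 was not far above the floor, and wildtype replicate 3 lay at it, so the difference may be compressed. The difference was 1.23 with a standard error of 0.16 (limma adjusted p = 0.0194). This call did not survive the loss of some samples: the adjusted p was 0.0997 without KO replicate 2, 0.0561 without KO replicate 3 and 0.0517 without wildtype replicate 1, with differences of 1.196, 1.198 and 1.30. The other probe sets of Trim23 averaged near the floor in both groups and differed by 0.12 and -0.10. The mean of all its probe sets differed by 0.42 (limma adjusted p over genes = 0.0897).

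Trim16 had the highest difference of the family. It encodes a TRIM protein without a RING finger that takes part in the autophagy of damaged lysosomes, and its probe sets also name Fbxw10, from which it cannot be told apart. It read 6.07, 6.89 and 7.76 in the samples labelled KO, against 5.06, 4.94 and 5.41 in wildtype. The samples labelled KO were spread over more than 1 log2 unit and all lay above wildtype. The difference was 1.77 with a standard error of 0.41, 3.40-fold higher (limma adjusted p = 0.0803), and it passed without KO replicate 1, at 2.19 (limma adjusted p = 0.0458). The second Trim16 probe set averaged 4.08 in the samples labelled KO, against 4.12 in wildtype.

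Trim59 and Trim13 are anchored in membranes of the cell. Trim59 read 8.07, 8.21 and 6.64 in the samples labelled KO, against 6.64, 5.96 and 5.87 in wildtype, at a probe set that also names LOC630539. KO replicate 3 stood apart from its group and touched wildtype replicate 1. The difference was 1.48 with a standard error of 0.44 (limma adjusted p = 0.151). At the second Trim59 probe set the samples labelled KO read 7.69, 7.71 and 5.12, against 6.07, 6.14 and 5.78 in wildtype, so KO replicate 3 lay below all 3 wildtype samples. Without that sample both probe sets passed, with differences of 1.98 and 1.70 and limma adjusted p of 0.0394 and 0.0192. Trim13, a ligase of the endoplasmic reticulum, read 5.16, 4.69 and 6.93 in the samples labelled KO, against 4.68, 5.11 and 4.49 in wildtype. Here KO replicate 3 was the highest sample, and the difference of 0.83 was 0.17 without it.

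Trim10 did not separate the groups. It promotes terminal erythroid differentiation in mouse cells. Trim10 read 6.82, 6.14 and 4.31 in the samples labelled KO, against 5.21, 6.60 and 5.43 in wildtype. KO replicate 1 and wildtype replicate 2 were highest and KO replicate 3 lowest. The difference was 0.01 with a 95% interval of -1.61 to 1.63, which reaches past 3-fold in either direction. Leaving out 1 sample moved the difference between -0.52 and 0.73.

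Late red cell genes ranked the samples in nearly the same way. Slc4a1, the anion exchanger of the red cell membrane, read 10.997, 10.41 and 5.44 in the samples labelled KO, against 8.28, 10.48 and 8.30 in wildtype. Alas2, the first enzyme of erythroid heme synthesis, read 8.999, 7.94 and 4.62 in the samples labelled KO, against 6.34, 8.75 and 6.04 in wildtype. For both, as for Trim10, KO replicate 3 was the lowest sample, and KO replicate 1 and wildtype replicate 2 stood among the highest. Gata1, the regulator that sets the erythroid programme, instead read 9.34, 9.03 and 8.75 in the samples labelled KO, against 5.99, 6.83 and 5.65 in wildtype. It was the 1 of 10 erythroid markers that rose past the threshold (limma adjusted p = 0.0110 over genes), where 2.22% of all genes did. Klf1 and Epor separated the groups in the same direction without passing, with differences of 1.91 and 1.56.

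**Figure D4:**
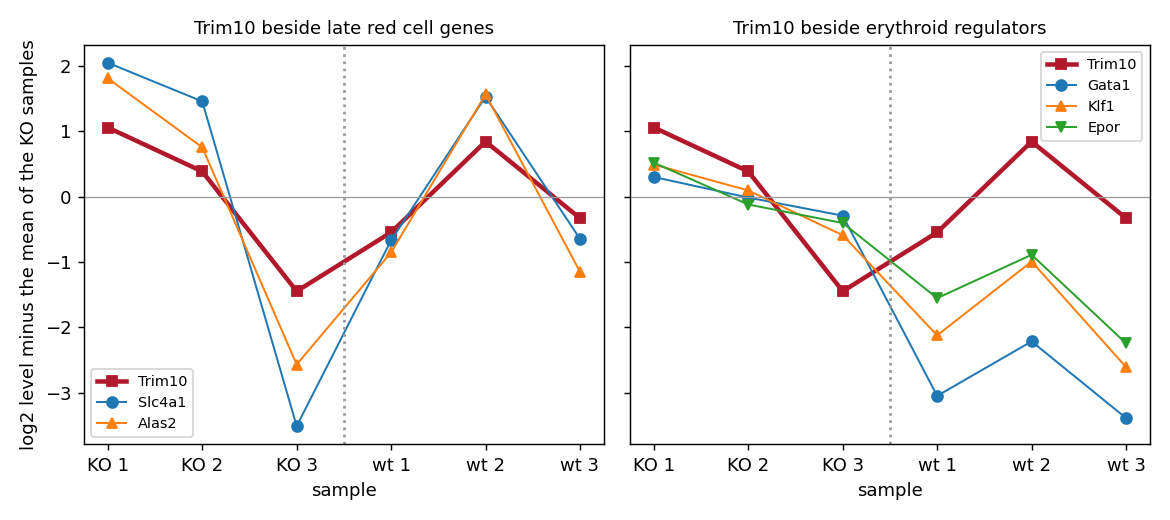
Log2 level in each sample minus the mean of the 3 samples labelled KO, for Trim10 beside Slc4a1 and Alas2 on the left and beside Gata1, Klf1 and Epor on the right. KO replicate 3 is the lowest sample of Trim10 and of the late red cell genes, whereas Gata1, Klf1 and Epor are higher in every sample labelled KO than in wildtype.

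Trim27 showed how far probe sets of 1 gene can part. This ligase works with the retromer complex on endosomes. Its 3 brightest probe sets differed by 0.05, 0.17 and 0.10, and the brightest read 7.83, 7.95 and 7.85 in the samples labelled KO, against 7.74, 8.28 and 7.44 in wildtype. Another Trim27 probe set, the fourth in brightness, read 5.43, 5.02 and 5.79 in the samples labelled KO, against 4.38, 4.53 and 3.85 in wildtype. There the groups did not overlap, and the difference was 1.16 with a standard error of 0.26 (limma adjusted p = 0.0713). Which Trim27 transcripts each probe set covers was not determined.

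**Figure D5:**
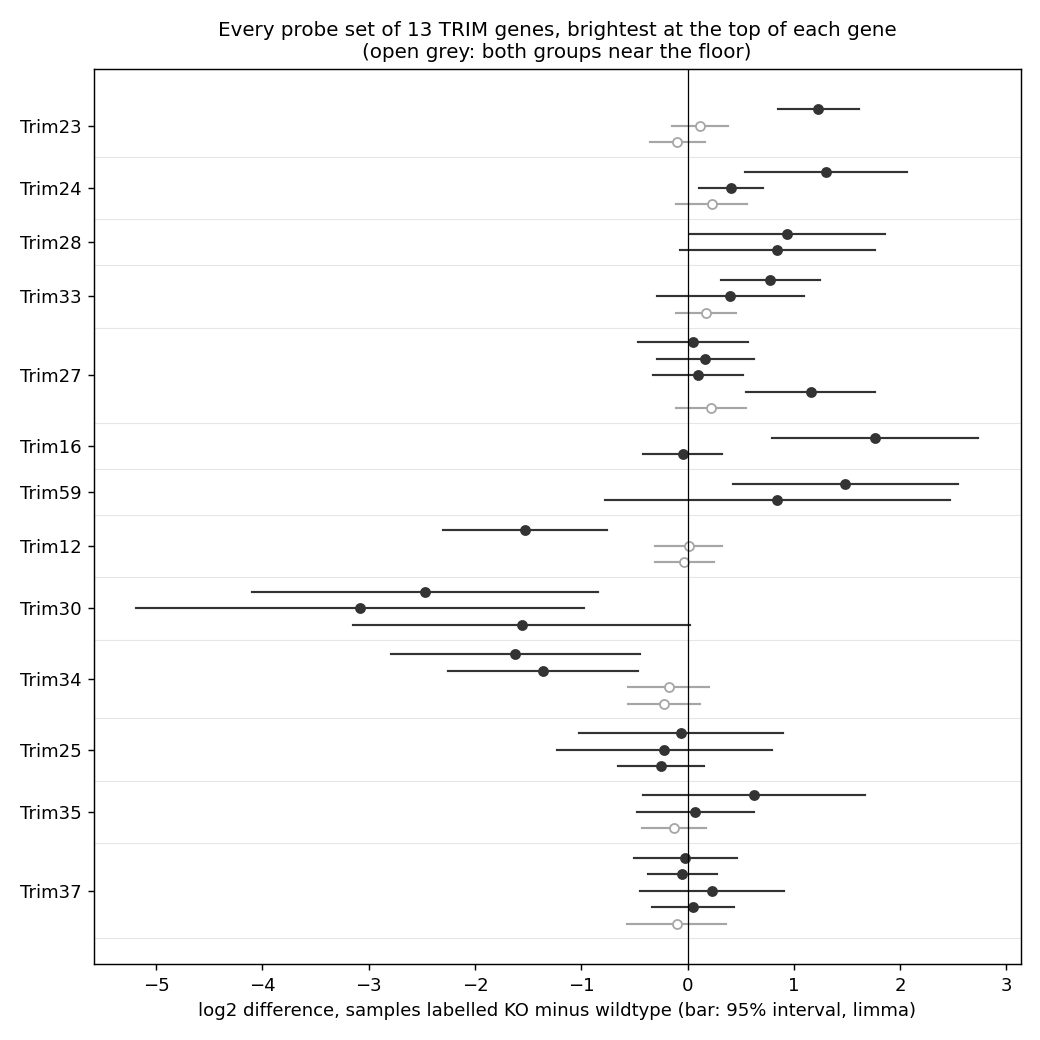
Log2 difference (samples labelled KO minus wildtype) with its 95% interval from limma for every probe set of 13 TRIM genes, the brightest of each gene on top and open grey points near the floor in both groups. All 3 probe sets of Trim30 lie left of 0 and all of Trim24, Trim28, Trim33 and Trim27 right of it, but 1 of 5 for Trim27 stands apart from the rest.

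Other members above the floor did not pass the test either. Trim37, a ligase of centrosomes and chromatin, averaged 6.99 ± 0.31 in the samples labelled KO, against 7.02 ± 0.24 in wildtype (SD, n = 3), a difference of -0.02 with a 95% interval of -0.51 to 0.46. Trim35, first described in blood cell lineage switching, read 6.96, 7.69 and 7.44 in the samples labelled KO, against 6.34, 7.74 and 6.13 in wildtype. Wildtype replicate 2 was the highest sample of Trim35, and the difference of 0.63 did not pass (limma adjusted p = 0.547) and was 1.13 without it. Trim32, an NHL repeat ligase of muscle and neurons, differed by 0.27 with a 95% interval of -0.37 to 0.91. Trim44, Trim8 and Trim11 differed by 0.54, 0.47 and -0.37 without passing.

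Branches known from muscle, neurons and embryos gave little signal. Of 8 probe sets of the microtubule and axon genes Trim9, Trim36, Trim46 and Trim67, 5 were near the floor in both groups, and the differences of all 8 lay between -0.16 and 0.25. Of 10 probe sets of the NHL repeat genes Trim2, Trim3, Trim32 and Trim71, 8 were near the floor in both groups. Among the muscle genes Trim54, Trim63 and Trim72, limma called 0, and Trim72, which takes part in membrane repair, was lower at an unadjusted p under 0.05. Trim72 read 4.15, 3.77 and 3.91 in the samples labelled KO, against 4.26, 4.33 and 4.24 in wildtype, a difference of -0.33 just above the floor.

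Family members that go by other symbols were set beside these. Mefv, which encodes pyrin, an inflammasome sensor of myeloid cells, read 3.99, 3.72 and 3.57 in the samples labelled KO, against 6.32, 4.53 and 7.19 in wildtype, and the groups did not overlap (difference -2.26, limma adjusted p over genes = 0.107). Pml, the scaffold of nuclear bodies, averaged 4.66 ± 0.43 in the samples labelled KO, against 5.37 ± 0.60 in wildtype (SD, n = 3), and its difference of -0.71 did not pass (limma adjusted p over genes = 0.340). Of the 5 such genes limma called 0, with 1, Mefv, at an unadjusted p under 0.05. Over all genes 4.55% were called, and 3984 of 20724 reached an unadjusted p under 0.05.

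Partners of the family were mixed. Of 13 measured genes of RIG-I and TAK1 signalling, 1 rose, 2 fell and 10 did not pass, where 2.22% of all genes were called higher and 2.33% lower. At an unadjusted limma p under 0.05 there were 8 of the 13, where 3984 of 20724 genes reached that level. Irf3, the transcription factor at the end of RIG-I signalling, read 6.71, 6.78 and 6.72 in the samples labelled KO, against 7.60, 7.41 and 7.496 in wildtype, a fall of 1.70-fold (limma adjusted p = 0.0226 over genes). Ikbke, a kinase that activates it, fell 2.10-fold (limma adjusted p = 0.0418 over genes). Tab3, a TAK1 adaptor and substrate of mouse Trim30a, rose 2.72-fold (limma adjusted p = 0.0246 over genes). It read 6.04, 6.25 and 5.65 in the samples labelled KO, against 4.50, 4.87 and 4.23 in wildtype. Tab2, the other substrate named above, differed by 0.21 with overlap between the groups (limma adjusted p over genes = 0.791). That degradation acts on protein, which these RNA values do not measure, and a link to Trim30 was not tested. The RNA sensor genes Ddx58 and Dhx58 differed by -1.09 and -1.83 without passing.

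Of 11 measured partners of TIF1 proteins 1 rose, 0 fell and 10 did not pass, where 2.22% of all genes were called higher and 2.33% lower. The gene that rose was Chd3, a remodeller of the NuRD complex that Trim28 recruits. It read 5.92, 6.42 and 6.86 in the samples labelled KO, against 4.57, 5.05 and 5.04 in wildtype, 2.86-fold higher (limma adjusted p = 0.0329 over genes). Cbx3, an HP1 protein that binds Trim28, differed by 1.01 and Setdb1, the histone methyltransferase it recruits, by 0.18, both without passing. Of 10 measured ubiquitin, E1 and E2 genes limma called 0, with 4 at an unadjusted p under 0.05 and a median difference of 0.44. Over all genes 4.55% were called, 3984 of 20724 reached an unadjusted p under 0.05, and the median difference was 0.01. Ube2d3, an E2 that many RING ligases use, read 11.83, 11.56 and 11.17 in the samples labelled KO, against 10.95, 10.91 and 10.94 in wildtype, and its difference of 0.58 did not pass (limma adjusted p over genes = 0.142). Its relative Ube2d1 differed by -0.89 (limma adjusted p over genes = 0.0626), with no overlap between the groups in either case.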

How the data were processed

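The authors deposited log2 values made with RMA, per the submitters' processing notes, for 6 arrays, 3 a group, made from 200 ng of RNA per the labels. The version was not given in the sources used here. A second deposited table holds gene symbols, the same log2 values, and the authors' p-values and signed folds (a score without values between -1 and 1), per the file headers. Group means of the 2 tables differed by 0. After leaving out 64 array controls, 45037 probe sets were fitted in R 4.3.3 with limma 3.58.1 (lmFit, eBayes; KO minus wildtype, two-sided, Benjamini-Hochberg adjustment over all probe sets, threshold 0.05, no filter). Adjusted p are over probe sets unless given as over genes, where 20724 symbols were represented by the brightest probe set naming 1 gene. Members, lists and tests were chosen with earlier results of these data known. Named genes were those past the threshold, those without overlap and with a difference of at least 1 at the brightest probe set, those with a sample at least 2 from all others, and a set chosen for their roles (Trim10, Trim12a, Trim12c, Trim13, Trim14, Trim21, Trim24, Trim25, Trim27, Trim28, Trim30a, Trim32, Trim33, Trim34a, Trim35, Trim37, Trim59 and Trim66). Trim58 was also in that set but was not analysed here. Of the other lists, members past the threshold or with the smallest p, at most 4 a list, were named. Trim8, Trim11, Trim26, Trim44, Trim65, Trim72 and the genes near the floor were named after their values were seen. So were Slc4a1, Alas2, Irf7, Irf8, Ccr2, Ddx58, Tab2, Pml and Setdb1. Some list members are not reported here by name. Symbols were updated through RefSeq (GRCm38.p6) by synonyms that belong to 1 gene. The fit was tested on simulated data. Alternatives were leaving out samples, a replicate block, a repeated quantile normalization, other moderation and array weights, filters on dim probe sets, other choices of probe sets, other thresholds and the authors' p-values. Same-numbered samples of the groups did not deviate together (correlations -0.14, -0.03 and -0.02). With 3 arrays a group, the precision is limited by that number. Figures used matplotlib 3.10.9 in Python 3.11.15.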

Additional observations from a re-analysis of the deposited data

How the results depend on the processing

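The count of 1 TRIM probe set past the threshold ranged from 0 to 5 when 1 sample was left out, and that of 1 TRIM gene from 0 to 4; both highest counts came without wildtype replicate 2. The count of probe sets was 0 with the replicate block or at a threshold of 0.01. It was 2 with an intensity trend or array weights, 4 with a mean of at least 4 or 5, and 5 at a threshold of 0.1. Trim23, with a mean of 4.74, was itself left out of the fit with a mean of at least 5. The 4 calls of that fit were other probe sets, with Trim16, Trim24 and Trim30 among them (limma adjusted p = 0.0311, 0.0423 and 0.0463). Without KO replicate 3 the 2 calls were both of Trim59. The count of genes was 2 with an intensity trend, array weights or a mean of at least 4 or 5, and 0 when every probe set of a gene was averaged. The cause of these shifts was not tested. Both counts stayed 1 with robust moderation, a repeated quantile normalization and without probe sets that can match several transcripts. The median TRIM difference lay between -0.00 and 0.04 when 1 sample was left out and was 0.10 with a mean of at least 5. Trim23 had an adjusted p of 0.0530 with the replicate block, where the numbers do not pair the samples. Signs turned for members with differences near 0: Trim27 (-0.0585) and Trim66 (-0.0287) after a repeated quantile normalization, Trim21 (-0.0378) and Trim66 (-0.0273) with array weights, and Trim37 (0.0208) when probe sets were averaged. Leaving out 1 sample gave -0.41 to 0.41 for Trim25, -0.14 to 0.28 for Trim27, -0.0825 to 0.28 for Trim21, -0.17 to 0.14 for Trim37, -0.0560 to 0.0760 for Trim66 and -0.52 to 0.73 for Trim10. RMA compresses low levels, so differences of probe sets near the floor are limited by signal over background.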

Other observations

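Some TRIM genes stand in the table under older symbols and were looked up through RefSeq synonyms after the values of the family had been seen. They are 6 genes with 8 probe sets, and 4 of them, Trim5, Trim12c, Trim30b and Trim30d, belong to the chromosome 7 run described above. These 4 were also on the list of antiviral and innate genes. They were not among the 10 such genes counted above, which stand in the table under Trim symbols. Trim5 (listed as EG667823) read 3.64, 3.65 and 3.24 in the samples labelled KO, against 5.49, 4.22 and 4.97 in wildtype, a difference of -1.38 with a limma adjusted p of 0.0819. Trim30d (listed as AI451617) read 3.50, 3.57 and 3.27 in the samples labelled KO, against 6.58, 3.92 and 4.95 in wildtype, a difference of -1.71 with a limma adjusted p of 0.224. In both genes the samples labelled KO were near the floor, the groups did not overlap, and wildtype replicate 1 was highest and replicate 2 lowest of the wildtype samples, as in Trim30. Trim30b (listed as A530023O14Rik) differed by -0.96 and Trim12c (listed as 9230105E10Rik) by -0.49, with limma adjusted p of 0.272 and 0.362. Trim43a and Trim80, which lie on other chromosomes, differed by -0.10 and 0.17. A second probe set each of Trim5 and Trim30d differed by -0.01 and -0.51 without passing.

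The letters AGATAA or TGATAA, the core that GATA factors recognise, searched on both strands, stood in 5 of 55 TRIM promoters (9.09%), beside 18.6% of all promoters. Trim10 was among the 5 genes, with a match at -163 to -158 relative to the start, and Trim72, Trim39, Trim40 and Trim2 were the others.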
